A study of Mus musculus with 20 samples.

Results

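The genotype difference between Ts1Cje and wild-type (WT) mouse forebrain was followed in embryos whose parents ate chow with apigenin. Its members were the 10 arrays, of 20 in the series, whose treatment field reads Apigenin, 5 with the genotype Ts1Cje and 5 with the genotype WT, and all 20239 probe sets with a gene symbol were tested. Ts1Cje males had been mated to C57Bl/6J females, and from mating on the breeding pairs of both groups ate purified powdered chow with 2 g of apigenin, a plant flavone, per kg, given in the labels as a daily intake of 333 to 400 mg/kg. Each array held RNA of the forebrain of 1 embryo, labelled embryonic day 15 (E15.5 in the protocol), and was an Affymetrix Mouse Gene ST 1.0 array. The other 10 arrays, 5 Ts1Cje and 5 WT, came from pairs on the same chow without apigenin and served for comparison. The question was which genes the trisomy changed under apigenin, and whether the change differed from that on plain chow.

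Ts1Cje is a mouse model of trisomy 21. Its embryos have an additional copy of a distal stretch of chromosome 16, home to mouse counterparts of human chromosome 21 genes, and this stretch sits on the end of chromosome 12. The line arose from a targeted insertion in Sod1, which lies at the edge of the extra part, and it is known to lack 1 copy of a small set of genes at the end of chromosome 12. With an extra copy of a gene, its RNA often rises toward 1.5-fold, the ratio of the copies. The Ts1Cje group therefore differs from WT in a gain on chromosome 16 and a loss on chromosome 12 at the same time, and the effects of these cannot be told apart in genes elsewhere.

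The embryos were checked before they were compared. Forebrain markers were bright, with Tbr1, a factor of cortical neurons, at a mean of 11.2 on the log2 scale over all arrays, Neurod6 at 11.4 and Dlx2, a factor of the ganglionic eminence, at 10.1, and the hindbrain gene Hoxb4 lay at 6.01. Y-linked signal put 3 male and 2 female embryos in each group, the numbers the design text gives. In 2 of the 5 Ts1Cje embryos on apigenin, replicates 3 and 5, the midbrain factor En2 was at 7.54 and 7.62, against 6.13 to 6.70 in the other 8 embryos. Of 8 genes of midbrain development put together after their values were seen, 6 were higher in those 2 embryos than in all of the other 8, among them Barhl1 at 8.07 and 8.08 against 7.41 to 7.79. None of the 8 genes was called between genotypes, and the part of this tissue in the results was not tested beyond counts without these 2 embryos, given beside the main ones. Replicates 3 and 5 were also the 2 females of their group, with Y-linked signal at 4.73 and 4.71. The fit without them therefore set 3 male Ts1Cje embryos against 3 male and 2 female WT embryos. Midbrain signal, sex and the smaller group cannot be told apart in that fit. In bulk tissue, fewer cells of a type and less RNA per cell cannot be told apart. The labels do not give litters, so p-values rest on embryo-to-embryo spread alone, and littermates may be among the embryos.

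Most of the change on apigenin chow lay in the extra part of chromosome 16. A gene was called when limma gave an adjusted p under 0.05 (Benjamini-Hochberg over all genes tested). Of 20239 genes 63 were called (0.311%), 53 of them higher in Ts1Cje (0.262%) and 10 lower (0.0494%), and 1059 had an unadjusted p under 0.05. Of the 68 genes listed for the segment, from Scaf4 to Zbtb21, 42 rose, 0 fell and 26 did not pass, where rose and fell mean called. Called or not, 64 of the 68 had a difference above 0, and 50 had an unadjusted p under 0.05 (limma). The list's median log2 difference (Ts1Cje minus WT) was 0.34, beside -0.0043 over all genes. Without Ts1Cje replicates 3 and 5, 51 genes were called, 39 of them segment members, and 38 of these were among the 42 (Clic6, Kcnj6, Ets2 and Dnajc28 were lost).

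The segment separated the genotypes in every embryo. The mean log2 value of its 68 members was 8.42, 8.41, 8.42, 8.41 and 8.40 in the WT embryos and 8.70, 8.70, 8.67, 8.70 and 8.69 in the Ts1Cje embryos. The groups did not overlap, and the lowest Ts1Cje embryo stood well above the highest WT embryo. The means were 8.41 ± 0.0079 and 8.69 ± 0.012 (SD, n = 5 each), a difference of 0.28 (SE 0.0065) or 1.21-fold, and the exact permutation test (two-sided) gave p = 0.0079, its minimum for 5 against 5. Within the embryos numbered 1 to 28 the difference was 0.28, and within those numbered 55 to 59 it was 0.28 as well. Gene by gene, all 5 Ts1Cje embryos were above all 5 WT embryos in 44 of the 68 members, beside 173 of all genes (0.855%), and below them in 0 members, beside 116 of all genes (0.573%).

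**Figure D1:**
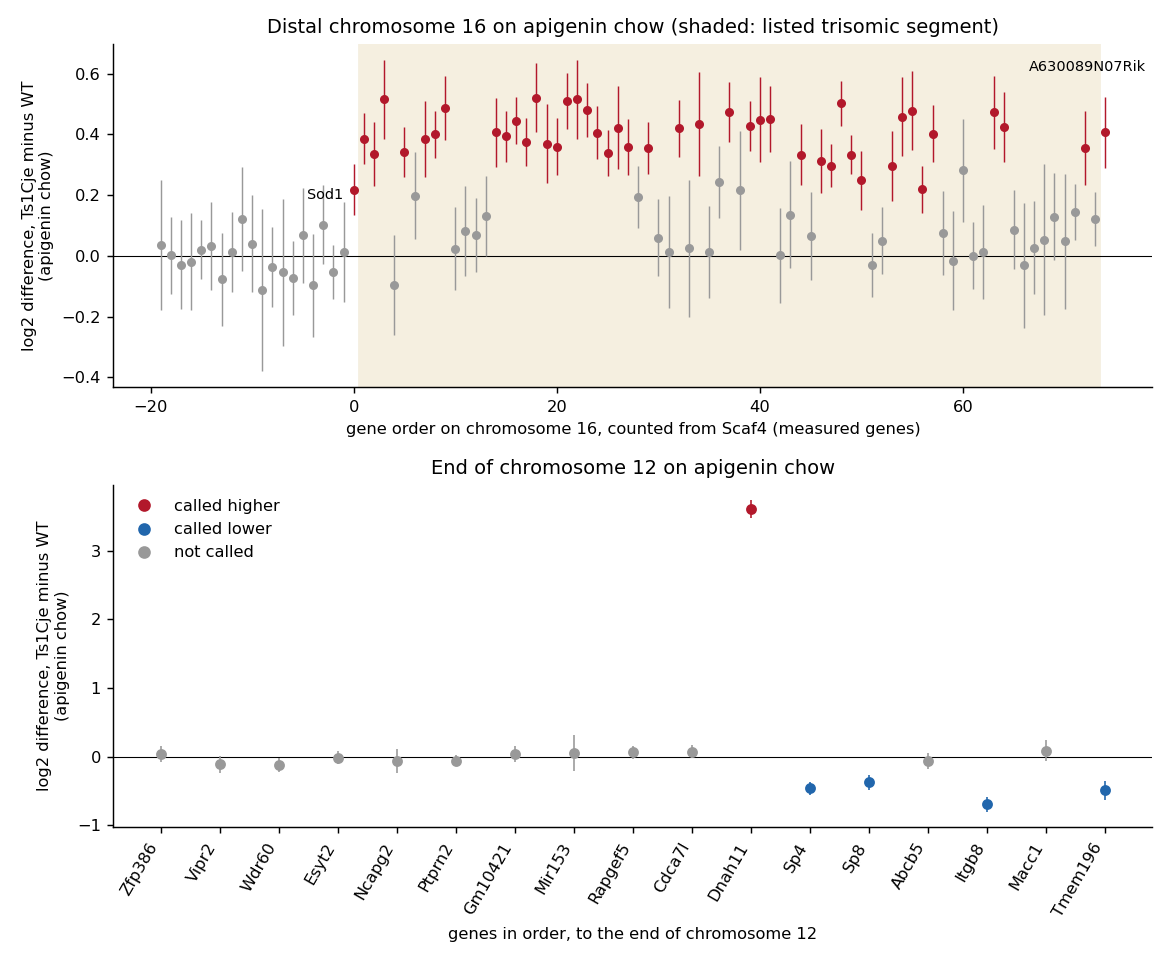
Log2 difference (Ts1Cje minus WT, n = 5 each) of genes in chromosomal order on apigenin chow, with 95% intervals, for distal chromosome 16 with the listed segment shaded (top) and for the end of chromosome 12 (bottom, with its own axis). Higher calls start at Sod1 and go on to A630089N07Rik, with uncalled members scattered between them, while at the end of chromosome 12 Dnah11 lies at 3.61 and the 4 genes called lower lie distal to it.

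The rise went with the signal of the probe set. Of the 43 members with a signal above the median of all genes (7.87), 39 rose, and their median difference over all 43 was 0.40, or 1.32-fold. Of the 25 members at or below that signal 3 rose (Kcnj6, Hlcs and Dnajc28) and the median was 0.07. Low array values are compressed toward background, so a low difference of a dim probe set does not show that its RNA did not rise. The 42 called members ranged from 1.16-fold (Hmgn1) to 1.44-fold (Tmem50b) with a median of 1.32-fold. No member reached 1.5-fold. For 32 of the 42 the 95% interval lay under 1.5-fold, and for 10 it reached that value.

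**Figure D2:**
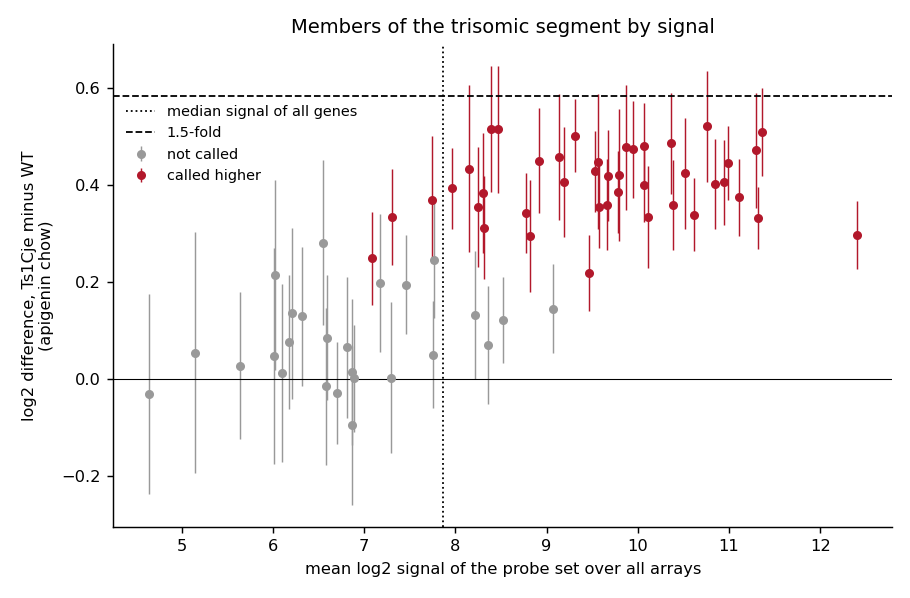
Log2 difference (Ts1Cje minus WT on apigenin chow, bars 95% intervals) of the 68 segment members against the mean log2 signal of their probe sets. Right of the dotted line, the median signal of all genes (7.87), 39 of 43 members were called, and left of it 3 of 25; all points lie under the dashed line at 1.5-fold.

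Genes of RNA processing and translation all rose, 5 of 5. Son, a protein of nuclear speckles needed for splicing, was at 11.15, 11.20, 11.23, 11.10 and 11.11 in WT and at 11.71, 11.71, 11.64, 11.64 and 11.63 in Ts1Cje. Every Ts1Cje embryo was far above every WT embryo, and the difference was 0.51 (SE 0.043, adjusted p = 8.7e-07). Paxbp1 rose by 0.49, Scaf4, a regulator of RNA polymerase II termination, by 0.39, Mrps6, a mitochondrial ribosomal protein, by 0.36, and Urb1, a ribosome biogenesis factor, by 0.34.

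Of 9 genes of chromatin and DNA replication, 6 rose. Donson, a replication fork protein, went from 8.18 ± 0.045 to 8.70 ± 0.027 (0.52, SE 0.062), and Mis18a, which helps to load the centromeric histone, from 8.35 ± 0.12 to 8.87 ± 0.070 (0.52, SE 0.063). Chaf1b, a subunit of the chromatin assembly factor CAF-1, rose by 0.45, Brwd1 by 0.48 and Morc3 by 0.45. Hmgn1, a nucleosome-binding protein, rose least, by 0.22. The 3 that did not pass were Setd4 at 0.25 (adjusted p = 0.099), whose groups still did not overlap, Prdm15 at 0.14 and Zbtb21 at 0.12. Prdm15 and Zbtb21 have bright probe sets, at 9.07 and 8.52 over all arrays, and lie at the distal end of the list. C2cd2, which lies between them, rose by 0.36, and A630089N07Rik, beyond both, rose by 0.41. On plain chow Prdm15 was at 0.22 (limma adjusted p = 0.025) and Zbtb21 at 0.19 (adjusted p = 0.081).

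Of the 7 transcription factors of the segment 1 passed, and 4 of the others had dim probe sets. Ets2 rose by 0.30 (SE 0.056, adjusted p = 0.013), but it was not called in 5 of the 10 fits that left out 1 embryo. Olig1 and Olig2, which set up the oligodendrocyte lineage and the ventral progenitors, have probe sets above the median signal. Olig2 was at 8.20, 8.29, 8.36, 8.43 and 8.44 in WT and at 8.41, 8.38, 8.42, 8.47 and 8.38 in Ts1Cje. The groups overlapped, with a difference of 0.07 (95% interval -0.053 to 0.19), whose upper bound is under 1.5-fold. Olig1 was at 0.13 (95% interval 0.00073 to 0.26, adjusted p = 0.95). Runx1 (0.01), Sim2 (0.14), Ripply3 (0.07) and Erg (0.05) were the dim ones.

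All 4 cytokine receptor genes rose, and the 2 antiviral Mx genes did not pass. Ifnar1, a chain of the type I interferon receptor, was at 10.71, 10.69, 10.76, 10.79 and 10.84 in WT and at 11.13, 11.26, 11.20, 11.20 and 11.23 in Ts1Cje. The difference of 0.45 (SE 0.037, adjusted p = 5.8e-07) was several times the spread within either group. Ifnar2, the other chain, rose by 0.41, Il10rb, a shared chain of the interleukin-10 and type III interferon receptors, by 0.39, and Ifngr2, of the interferon gamma receptor, by 0.38. Mx1 (-0.03) and Mx2 (0.05), which interferon induces, had dim probe sets. Away from the segment, 0 of 39 measured interferon response genes passed, with a median of -0.00093 and single genes from -0.19 to 0.17. Over all genes 63 of 20239 were called (0.311%), so a count of 0 in a list of this size says little. The list's mean signal was 6.92 to 7.07 in the WT embryos, under the median of all genes (7.87), where differences are compressed. Parp9 had the smallest p of that list, at 0.14 (adjusted p = 0.86).

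All 7 membrane trafficking genes rose, with a median of 0.41. Vps26c, a subunit of the retriever complex that recycles endosomal cargo, had the smallest p of the segment. It was at 9.09, 9.05, 9.03, 9.10 and 9.11 in WT and at 9.52, 9.61, 9.58, 9.58 and 9.59 in Ts1Cje, a difference of 0.50 (SE 0.036, adjusted p = 8.8e-08). Synj1, a phosphoinositide phosphatase of synaptic vesicle recycling, rose by 0.40, Itsn1, an endocytic scaffold, by 0.41, and Dop1b by 0.43. Tmem50b rose by 0.52, the largest difference in the segment.

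Of the kinases and regulators of signalling, 4 of 5 rose. Dyrk1a, a kinase that acts on cell cycle exit and on NFAT factors, was at 11.16, 11.12, 11.16, 11.14 and 11.15 in WT and at 11.46, 11.51, 11.45, 11.46 and 11.51 in Ts1Cje. The embryos of each group lay within a narrow band, and the difference was 0.33 (SE 0.031, adjusted p = 2.2e-06), or 1.26-fold. Rcan1, an inhibitor of calcineurin, rose by 0.42, the kinase Hunk by 0.33 and Ttc3, a ubiquitin ligase, by 0.30. Dyrk1a and Rcan1 both act on calcineurin-NFAT signalling. Of 12 genes of that pathway outside the segment 0 passed, between -0.09 and 0.08, beside 0.311% of all genes. These values are RNA levels of the pathway's own components, and its activity was not measured.

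Of 10 genes of metabolism, 8 rose. The carbonyl reductase Cbr1 rose by 0.47 (SE 0.048) and Cryzl1 by 0.48 (SE 0.043). Atp5o, a subunit of mitochondrial ATP synthase, rose by 0.34, Gart, an enzyme of purine synthesis, by 0.36, Slc5a3, a myo-inositol transporter, by 0.42, and Psmg1, a proteasome assembly chaperone, by 0.46. Of 32 other oxidative phosphorylation genes 0 passed, beside 0.311% of all genes, with a median of -0.0097. Cbr3 (0.22) and B3galt5 (0.28), with dim probe sets at 6.03 and 6.55, did not pass.

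Of 12 channel, adhesion and neuronal genes 4 rose, with a median of 0.16. The 8 that did not pass all had probe sets under the median signal of all genes (7.87), from Kcne1 at 6.10 to Kcne2 at 7.45. Pcp4, a calmodulin regulator of neurons, rose from 10.86 ± 0.073 to 11.34 ± 0.080 (0.47, SE 0.057), Dscam, a neuronal adhesion receptor, by 0.43, and Clic6, a chloride channel protein of the choroid plexus, by 0.43 (adjusted p = 0.014). Kcnj6, the GIRK2 potassium channel, was at 6.85, 6.81, 6.98, 6.80 and 6.73 in WT and at 7.09, 7.17, 7.06, 7.01 and 7.10 in Ts1Cje, and rose by 0.25 (SE 0.046, adjusted p = 0.012). Clic6 was lost in 3 and Kcnj6 in 1 of the fits without 1 embryo, and both were lost without Ts1Cje replicates 3 and 5 (adjusted p = 0.16 and 0.10). Kcne2, a potassium channel subunit of the choroid plexus, was at 0.20 with groups that did not overlap (adjusted p = 0.18).

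The largest change of all genes tested was in Dnah11, a dynein heavy chain of motile cilia, at the end of chromosome 12. It was at 7.01, 6.93, 7.02, 6.98 and 7.02 in WT and at 10.66, 10.58, 10.60, 10.63 and 10.54 in Ts1Cje. The embryos of each group were nearly alike, and the difference was 3.61 (SE 0.061, adjusted p = 1.7e-19), or 12.2-fold. Other dynein and cilia genes were not examined here as a set. The 10 measured genes before Dnah11 were between -0.12 and 0.07, with 0 called.

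The genes distal to Dnah11 fell. Itgb8, an integrin subunit that activates TGF-beta, was at 9.88, 9.74, 9.86, 9.68 and 9.73 in WT and at 9.10, 9.16, 9.02, 9.00 and 9.15 in Ts1Cje, lower by more than any other called gene: the difference was -0.69 (SE 0.053, adjusted p = 2.5e-07), or 0.62-fold. Sp4, a zinc finger factor enriched in neurons, was at 9.54, 9.45, 9.53, 9.41 and 9.35 in WT and at 8.96, 9.09, 8.94, 8.99 and 8.96 in Ts1Cje (-0.46, SE 0.047, adjusted p = 7.3e-06). Sp8, a factor of interneuron progenitors and of forebrain patterning, went from 8.05 ± 0.046 to 7.67 ± 0.077 (-0.37, SE 0.052), and Tmem196 from 8.60 ± 0.11 to 8.11 ± 0.081 (-0.49, SE 0.068). In each of the 4 genes the groups did not overlap, beside 0.573% of all genes with all Ts1Cje embryos lower. Abcb5 (-0.06) and Macc1 (0.09), which lie between them in the gene order, had dim probe sets at 5.16 and 4.98. These 5 chromosome 12 genes were called in every one of the 22 alternative fits and tests, and without Ts1Cje replicates 3 and 5 as well.

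The promoters of Dnah11 and of 3 of these 4 lower genes are shown. The windows (RefSeq, GRCm38.p6) run from 250 bases before to 50 after the annotated start, 5′ to 3′ on the gene's strand. Sp4 and Sp8 belong to the family that binds GC boxes, and capitals mark the letters GGGCGG or, for the other strand, CCGCCC.
Dnah11, chr12:118198994-118199293, minus strand: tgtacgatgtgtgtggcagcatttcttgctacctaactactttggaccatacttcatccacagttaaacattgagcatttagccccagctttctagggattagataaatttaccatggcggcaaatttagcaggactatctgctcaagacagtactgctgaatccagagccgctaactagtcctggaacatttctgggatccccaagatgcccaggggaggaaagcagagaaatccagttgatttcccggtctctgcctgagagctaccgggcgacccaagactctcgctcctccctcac
Sp4, chr12:118301391-118301690, minus strand: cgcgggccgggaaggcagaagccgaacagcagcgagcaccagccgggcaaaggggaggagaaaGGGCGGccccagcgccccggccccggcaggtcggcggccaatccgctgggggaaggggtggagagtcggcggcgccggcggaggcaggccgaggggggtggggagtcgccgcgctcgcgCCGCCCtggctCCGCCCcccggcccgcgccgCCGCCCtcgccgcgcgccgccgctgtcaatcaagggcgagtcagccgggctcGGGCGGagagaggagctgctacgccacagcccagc
Sp8, chr12:118846079-118846378, plus strand: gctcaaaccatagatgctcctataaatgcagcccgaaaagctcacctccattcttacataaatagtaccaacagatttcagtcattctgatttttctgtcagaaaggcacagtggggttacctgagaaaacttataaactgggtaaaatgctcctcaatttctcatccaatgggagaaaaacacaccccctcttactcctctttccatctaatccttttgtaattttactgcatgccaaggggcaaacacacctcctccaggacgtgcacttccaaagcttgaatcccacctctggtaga
Itgb8, chr12:119238227-119238526, minus strand: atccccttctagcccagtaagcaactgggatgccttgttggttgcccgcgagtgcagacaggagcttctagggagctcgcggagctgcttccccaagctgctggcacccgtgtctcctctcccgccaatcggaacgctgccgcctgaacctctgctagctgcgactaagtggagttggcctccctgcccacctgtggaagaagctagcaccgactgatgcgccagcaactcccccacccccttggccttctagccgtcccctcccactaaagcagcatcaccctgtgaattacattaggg
The Sp4 window held 5 of these boxes at a GC content of 78.7%, and those of Dnah11 (49% GC), Sp8 (43%) and Itgb8 (60.7%) held 0. Of all 27018 RefSeq promoter windows, 35.9% held at least 1 box, and over the 15651 genes tested that had a window it was 49.5%. Among the called segment members 29 of 40 with a window held a box (72.5%), and among the uncalled ones 7 of 14 (50%). Outside the segment a box was in 7 of 10 windows of genes called higher. Of the genes called lower, which include the 4 of chromosome 12, 2 of 10 windows held a box. These shares describe letters and were not tested, and GC content moved with them, at a median of 68% in called and 61.2% in uncalled segment members.

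At the proximal edge of the segment lies Sod1, the cytosolic superoxide dismutase, the gene just before Scaf4. It was at 11.19, 11.22, 11.15, 11.16 and 11.15 in WT and at 11.41, 11.35, 11.45, 11.40 and 11.33 in Ts1Cje. The groups did not overlap, and the difference was 0.22 (SE 0.041, adjusted p = 0.012), or 1.16-fold. On apigenin chow this was smaller than the segment's median called rise of 1.32-fold. On plain chow Sod1 was at 0.35 (limma adjusted p = 2.8e-05), beside a median of 0.33 over the listed segment. The apigenin difference of Sod1 less the plain one was -0.14 (interval -0.26 to -0.015, limma adjusted p = 0.9999). Whether the smaller rise on apigenin is a property of this edge gene was not tested. The adjusted p of Sod1 on apigenin was 0.059 without Ts1Cje replicate 3 and 0.10 without replicates 3 and 5. The 19 genes before it in the map were between -0.11 and 0.12, and 1 of the 25 measured genes of a longer list before the segment was called, Sod1 itself. At the distal edge A630089N07Rik, beyond Zbtb21, rose by 0.41 (SE 0.056, adjusted p = 0.00032), from 10.39 ± 0.084 to 10.79 ± 0.11.

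With these flanking genes and the chromosome 12 genes set aside, 14 of the 21 called genes outside the list remained, spread over 10 chromosomes. Chromosome 13 held 4 of them, or 0.541% of its 739 genes tested. Chromosome 7 came next by count, with 2 of 1795 (0.111%). Whether the share on chromosome 13 is more than chance gives was not tested. Of the 28 genes that lie directly next to these 14 in the gene order, 0 passed, and their differences were between -0.22 and 0.14. Rfx5, a subunit of the factor that drives MHC class II genes, was at 8.40, 8.52, 8.67, 8.61 and 8.64 in WT and at 8.22, 8.23, 8.22, 8.01 and 8.18 in Ts1Cje. The groups did not overlap, and the difference was -0.39 (SE 0.057, adjusted p = 0.00052). The other 9 measured members of the MHC class II and RFX list did not pass, and the highest of them was at 0.16. H2-Ab1 was at -0.10 and H2-DMa at 0.09. The methods' t-test takes each gene on its own, with Benjamini-Hochberg adjustment, and was read at an adjusted p of 0.05 and at an unadjusted p of 0.001 with an adjusted p of 0.1. Rfx5 lost its call there at the first threshold (adjusted p = 0.092) and kept it at the second.

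Fbxl21, an F-box protein of the circadian clock, was at 6.56, 6.65, 6.91, 6.61 and 6.73 in WT and at 7.13, 7.05, 7.01, 7.15 and 7.11 in Ts1Cje. All Ts1Cje embryos were higher, by 0.39 on average (SE 0.059, adjusted p = 0.00085). Tpmt, a thiopurine methyltransferase, rose by 0.35 (SE 0.062, adjusted p = 0.0056). Scgn, a calcium-binding protein found in some interneurons, fell by 0.28 (SE 0.049, adjusted p = 0.0061) and Gng4, a G protein subunit, by 0.31 (SE 0.064, adjusted p = 0.033). Rfx5, Fbxl21 and Gng4 were called without Ts1Cje replicates 3 and 5, and Tpmt and Scgn were not (adjusted p = 0.17 and 0.16). Gng4 was nevertheless called in just 1 of the 10 fits that left out 1 embryo, and its adjusted p over the alternatives went up to 0.14, while the other 4 genes kept their call in those 10 fits. Fbxl21 was lost in the methods' t-test at either threshold (adjusted p = 0.10), and Tpmt there and with only the apigenin arrays, with adjusted p up to 0.27. Scgn was lost in 3 alternatives besides, with adjusted p up to 0.064.

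The other 9 called genes each lost their call in some of the fits. Catsperg1, a sperm calcium channel subunit, fell by 0.51 (SE 0.094, adjusted p = 0.012), Gm7168 by 0.50 (SE 0.099) at a signal of 4.52, and Impg2, a retinal matrix proteoglycan, by 0.33 (SE 0.068). The receptor gene Olfr1076 was higher by 0.35 and Odf4, a sperm tail protein, by 0.26. Tmem25 rose by 0.24, Copg2, a coatomer subunit of Golgi transport, by 0.20, Dnpep, a peptidase, by 0.19, and Idh2, mitochondrial isocitrate dehydrogenase, by 0.16. Of these 9 genes, 8 lost their call in at least 6 of the 10 fits that left out 1 embryo. Catsperg1 kept it in those fits and lost it with only the apigenin arrays and in the methods' t-test at either threshold, with adjusted p up to 0.39. The count outside the list, 21 with all embryos, was 13 without WT replicate 1 or without Ts1Cje replicate 3, and 12 without Ts1Cje replicates 3 and 5, of which 10 were among the 21.

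**Figure D3:**
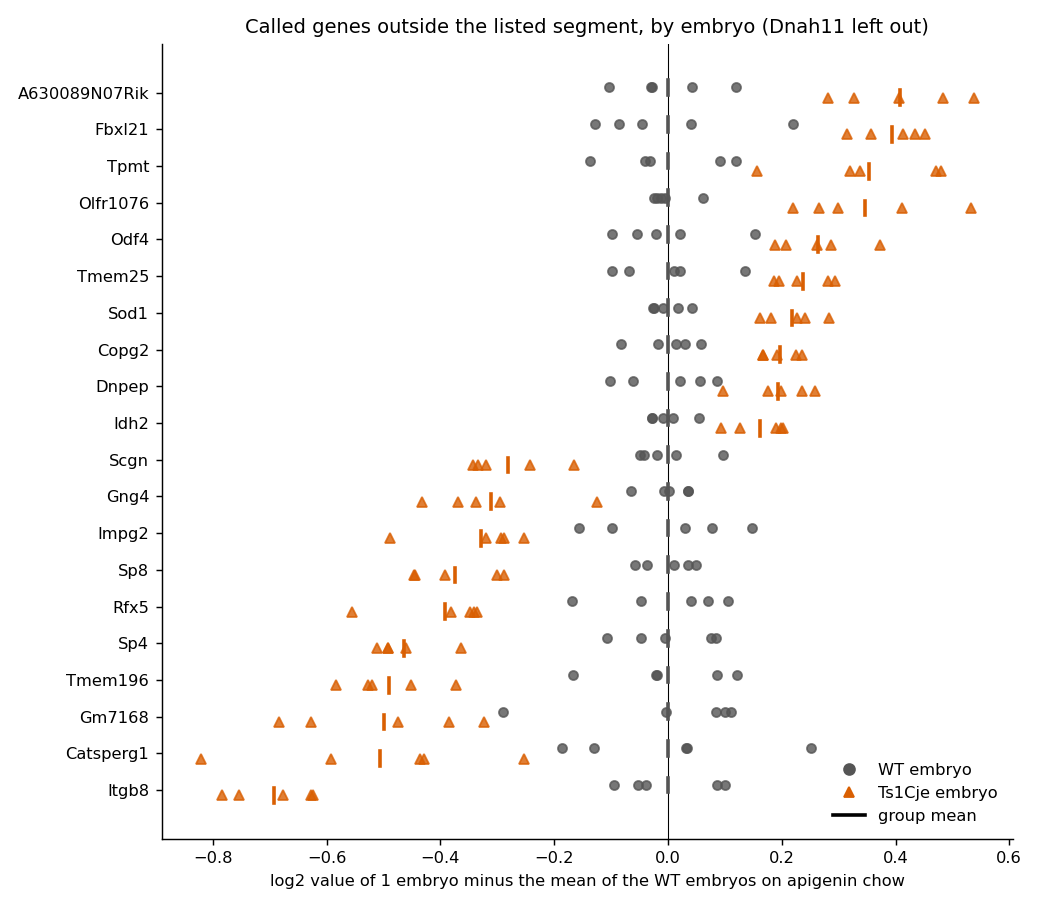
Log2 value of each embryo on apigenin chow minus the mean of the 5 WT embryos (circles WT, triangles Ts1Cje, bars group means) for the called genes outside the listed segment, Dnah11 left out. In every gene shown the 2 groups are apart, from Idh2 at 0.16 to Itgb8 at -0.69. The genes were picked by their call in this same comparison, so the gap is no added support. Over all genes, 0.855% were apart with Ts1Cje higher and 0.573% with Ts1Cje lower.

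Cell type and pathway lists showed few single genes past the threshold, which 0.311% of all genes passed. Of 27 measured interneuron and ganglionic eminence genes 1 fell, Scgn, and the median was -0.03, with Slc32a1, the vesicular GABA transporter, at -0.09 and Dlx1 at -0.09. Of 14 striatal neuron genes 0 passed. Drd2, the D2 dopamine receptor, was at 7.98 to 8.22 in WT and at 7.69 to 7.95 in Ts1Cje. The groups did not overlap, yet the difference of -0.23 (SE 0.062) had an adjusted p of 0.27. The lists of radial glia (25 genes), intermediate progenitors (17), cortical neurons (21), synapse (32), G2/M (35) and G1/S (31) held 0 called genes, with medians from -0.02 to 0.01.

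Stress and metabolic lists, and markers of cells that a forebrain dissection can carry along, held 0 called genes too. The median was -0.02 for 20 NRF2 and antioxidant genes and 0.03 for 18 p53 targets, in which Ccng1, at 0.15, had groups that did not overlap (adjusted p = 0.66). It was -0.01 for 11 erythroid genes, -0.07 for 15 microglia genes, -0.02 for 22 genes of endothelium and pericytes, 0.01 for 19 of meninges, 0.0034 for 18 of choroid plexus and hem, and 0.01 for 13 of oligodendrocyte precursors. The median half-width of the unadjusted 95% interval of a gene was 0.13 on the log2 scale, with 5 embryos per group. Calls were adjusted over all genes tested, so a gene needed a difference larger than its own half-width. The smallest difference called was 0.16 (Idh2), while Drd2 at -0.23, Setd4 at 0.25 and B3galt5 at 0.28 were not called. Lists with 0 called genes therefore do not show that changes of such sizes were absent.

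The last question was whether the trisomy's effect differed between chows. The difference of differences (Ts1Cje minus WT on apigenin, less the same on plain chow) passed the threshold in 0 of 20239 genes (0%), and 533 had an unadjusted p under 0.05. The smallest adjusted p was 0.14. Over the 68 segment members it was positive in 32 and negative in 36, with a median of -0.0072, and for the 42 called members the half-width of its 95% interval was 0.091 to 0.24. For Dyrk1a it was 0.01 (95% interval -0.078 to 0.10), for Son 0.0070 (-0.12 to 0.14) and for Dnah11 0.07 (-0.11 to 0.25). The chows share no arrays, but the apigenin embryos are numbered 1 to 59 and the plain ones from 87 upward, so chow and embryo number cannot be told apart.

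Among the genes named, Gm7168, Catsperg1, Scgn, Impg2, Kcnj6 and Fbxl21 had the smallest unadjusted p of that difference, and each had an adjusted p of 0.9999. Catsperg1 was lower by 0.51 on apigenin and at -0.07 on plain chow (difference -0.44, 95% interval -0.71 to -0.16). Gm7168 was at -0.50 and -0.0038 (difference -0.50, interval -0.79 to -0.20), Scgn at -0.28 and -0.09 (-0.19, interval -0.34 to -0.047), and Impg2 at -0.33 and -0.06 (-0.26, interval -0.46 to -0.064). Fbxl21 was higher on both, by 0.39 and 0.18 (0.21, interval 0.038 to 0.39). Kcnj6, a segment member, rose by 0.25 on apigenin and was at 0.42 on plain chow (-0.17, interval -0.31 to -0.037). The genes outside the segment were picked for their call on apigenin, which favours a larger value there. The smaller plain chow values of those given here are therefore no test of a chow effect. Some others outside the segment also had a limma adjusted p under 0.05 on plain chow. Among them were Itgb8 at -0.71, Sp4 at -0.41, Rfx5 at -0.30 (adjusted p = 0.011) and Tpmt at 0.30 (adjusted p = 0.035).

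**Figure D4:**
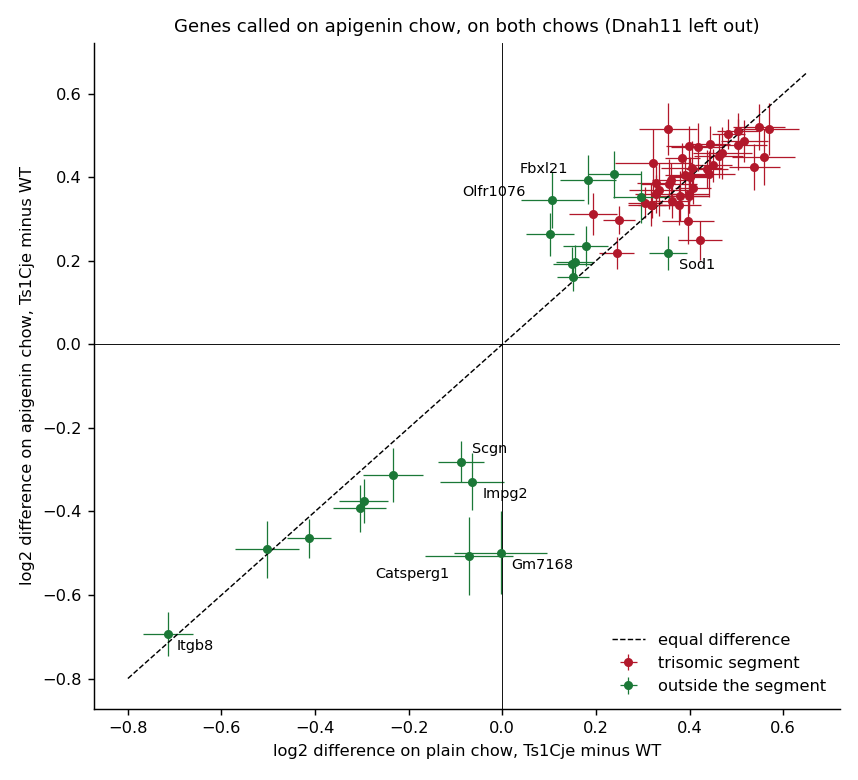
Log2 difference (Ts1Cje minus WT, bars SE, n = 5 per group) on apigenin chow against that on plain chow for the genes called on apigenin chow, Dnah11 left out; on the dashed line both are equal. Segment genes lie around the line, and among the genes outside it Catsperg1, Gm7168, Impg2 and Scgn lie farthest below it.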

How the data were processed

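The authors deposited 1 log2 value per probe set and array, from RMA according to the submitters' processing notes; version, chip definition and build were not given in the sources used here. RMA makes the arrays' distributions alike, so overall level differences were removed, and it compresses low values toward background. Of 21225 probe sets, 20239 had 1 gene symbol in GEO's platform annotation, which can be old, and 986 had none and were left out. Genotype and treatment came from the labels' fields, because every title carries the name Ts1Cje. limma 3.58.1 in R 4.3.3 fitted 1 mean per group over all 20 arrays (lmFit, eBayes, two-sided), with Benjamini-Hochberg adjustment, and was tested on simulated data. Intervals are at 95% and unadjusted. The segment mean was compared by exact permutation (scipy 1.17.1). Gene order and promoters came from RefSeq tables of GRCm38.p6, with the first window listed per gene. List sizes count measured genes, and the others are not analysed here.

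The genes named were all those called outside the segment, up to 4 per sub-list of the segment by p with the uncalled bright members, up to 3 of each other list, direct neighbours of called genes, and the 6 named genes with the smallest p of the difference between chows. Some others were named after their values were seen, namely the midbrain genes and further members of the segment's sub-lists. Members and lists were chosen with earlier results of these data known. Alternatives were leaving out the dimmest 20% or 40% of genes, a second quantile normalization, array centring, array weights, a trended robust prior, the embryo number run as a block, the Y-linked level as a covariate, only the apigenin arrays, the methods' t-test, another threshold and each array left out. The fit without Ts1Cje replicates 3 and 5 was added after seeing the data, and it left no female Ts1Cje embryo on apigenin. The 5 arrays per group limit the precision.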

Additional observations from a re-analysis of the deposited data

Results flagged for a closer look

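In 7 of 136 groups of 5 embryos examined, 1 embryo stood far from the others. This is about the share that chance gives (1 in 20), so these embryos are listed without being called true outliers. The mean of the segment was 8.67 in Ts1Cje replicate 3 on apigenin, against 8.69 to 8.70 in the other Ts1Cje embryos. Mis18a was at 8.75 in Ts1Cje replicate 4, against 8.87 to 8.92, and Synj1 at 10.33 in Ts1Cje replicate 2, against 10.21 to 10.24. Rfx5 was at 8.01 in Ts1Cje replicate 4, against 8.18 to 8.23, and Impg2 at 5.68 in Ts1Cje replicate 5, against 5.85 to 5.92. In WT embryos, Olfr1076 was at 4.06 in replicate 5, against 3.97 to 3.99, and Gm7168 at 4.48 in replicate 4, against 4.76 to 4.88.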

How the results depend on the processing

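No direction of a called gene was reversed in any alternative run. Over the alternatives the total count of calls was 50 to 71, and the segment members called higher were 33 (the methods' t-test after Benjamini-Hochberg) to 43. Of the 42 called segment members 33 were called in all 22 alternatives other than the fit without both embryos of high En2, and so were 5 of the 21 genes outside the list. The count outside the list was 13 to 18 with 1 embryo left out, 12 without those 2 embryos (chosen after seeing the data), and 16 to 31 in the other alternatives. The cause of the lower counts was not tested beyond the smaller number of embryos. The difference between chows gave 0 calls in every fit run. The segment mean difference was 0.28 to 0.29 with 1 embryo left out and 0.38 over its bright members. No paired analysis was possible because the labels give no replicate numbers that pair embryos across genotypes. Dim probe sets limit what can be said of the members near background.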

Other observations

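The midbrain genes also varied among the WT embryos on apigenin chow. Tfap2b was at 8.84, 6.62, 7.00, 9.67 and 8.51 in WT and at 6.83, 7.36, 9.91, 6.61 and 9.89 in Ts1Cje, a spread of several log2 units within each genotype. Otx2 was at 8.98 in WT replicate 4, just under the 8.98 of Ts1Cje replicate 5, and Gata3 was at 8.10 in WT replicate 4, above all Ts1Cje embryos. The genotype difference of Tfap2b was -0.0087, and its adjusted p was 0.9998.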
